A study of Mus musculus with 5 samples.

Results

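The entries described here are piRNA entries that no single stage of the mouse germ line dominated, from fetal germ cells to the zygote. They were chosen from the piRNA tables of 5 libraries by their own levels. Reads of each library were scaled to RPM, reads per 1000000 reads of its piRNA table, with an entry that a table does not list taken as 0. Each entry then had 4 stage values: primordial germ cells, spermatogonia, spermatozoa, and the mean of oocyte and zygote. An entry was kept where it had at least 100 reads over the 5 libraries, where its name was not marked chrM, and where none of the 4 values exceeded 45% of their sum. This left 1211 entries of 11444 with enough reads, out of 196406 piRNA entries listed in any library. The other entries with enough reads exceeded the limit in 1 stage: 2054 were led by primordial germ cells, 4664 by spermatogonia, 1479 by spermatozoa and 2036 by the egg stages.

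The study sequenced small RNAs of 18 to 32 nucleotides to compare piRNAs and endogenous siRNAs of male germ cells, oocytes and zygotes. Primordial germ cells came from 13.5-day fetal male gonads of CD-1 mice and were bound to anti-CD15 beads. Spermatogonia came from 8.5-day-old CD-1 testes, as the cells left in suspension after somatic cells had adhered. Spermatozoa were pressed from the cauda epididymis and vas deferens of mature CD-1 males, spun through a Percoll gradient and shocked in hypo-osmotic medium to remove other cells. Metaphase II oocytes were collected from the oviducts of C57BL/6 females aged 4 to 5 weeks, superovulated with 5 IU PMSG and 48 hours later 5 IU HCG, and numbered 15210 after removal of cumulus cells and zona. Zygotes, 15416 in number, had C57BL/6 mothers, superovulated alike, and DBA/6J fathers, were taken 15 to 18 hours after fertilization, and also had cumulus cells and zona removed. The animals carried no stated mutation or transgene. There was 1 library per cell type, made from pooled cells, so differences between cell types are given without replicate spread and without tests. The strain and the way of isolating cells also changed from the male to the egg libraries, and cannot be told apart from the cell type.

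piRNAs are small RNAs that bind PIWI proteins and are known for silencing transposons in the germ line. In mouse, fetal prospermatogonia hold piRNAs rich in transposon sequence, and meiotic and later male germ cells hold abundant piRNAs from long precursor transcripts. Mouse oocytes also hold piRNAs, beside endogenous siRNAs that are cut by Dicer. The entries are known here by catalogue name only, in 2 series (names in mmur and names in PIR). Their sequences, positions and genes were not analysed here.

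The piRNA tables held 5820204 reads for primordial germ cells and 7150813 for spermatogonia, with 18212803 for spermatozoa, 14513316 for oocytes and 9552106 for zygotes. These depths put a count of 3 reads, the limit that 0 reads allow, at 0.165 to 0.515 RPM. Each library had 4 tables (piRNA, endo-siRNA, miRNA and snoRNA). Of their reads the piRNA table held 83.4% in spermatozoa, against 21.9% in primordial germ cells, 27.1% in spermatogonia, 33.5% in oocytes and 22.1% in zygotes. Markers among the miRNAs followed the labels in part: the miR-290 and miR-302 cluster list, of pluripotent and early germ cells, summed to 42619 RPM of miRNA reads in primordial germ cells and 65.8 in spermatozoa, where 12 of its 19 arms were at 0. The list of miR-34b/c and miR-449, of later spermatogenesis, summed to 235995 RPM in spermatozoa and 932 to 8295 elsewhere, with 1 or 2 of 8 arms at 0. Markers of other cells were also present. The smooth muscle list (miR-143 and miR-145a, no arm at 0) summed to 233110 RPM in spermatogonia and 230783 in spermatozoa, against 9261 to 26563 elsewhere. The erythroid list was highest in spermatozoa (18886 RPM, against 188 to 1774), and only the oocyte lacked 1 of its 3 arms. The epithelial miR-200 list was highest there too (22968 RPM, against 1084 to 9966), with 0 to 3 of 10 arms at 0. Endothelial miR-126a (96.7 to 9053 RPM) and gonadal miR-202 (103 to 14981 RPM) were highest in spermatogonia, with no arm at 0. Leukocyte miR-142 had 19.4 to 2498 RPM and lacked 1 of 2 arms in the oocyte and zygote, and the neuronal list had at most 3875 RPM with 1 to 3 of 7 arms at 0. The part of such cells in the levels below was not tested.

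The shared entries, as chosen by RPM of the piRNA table, held 24.3% to 57.97% of the piRNA reads of a library. They took 33.3% of the reads for primordial germ cells and 24.3% for spermatogonia, with 29.9% for spermatozoa, 57.97% for oocytes and 38.1% for zygotes. The widest exact 95% interval of these shares (Clopper-Pearson), that of primordial germ cells, was 33.28% to 33.35%, and covers counting error only. On these entries the oocyte library stood highest and spermatogonia lowest. With entries chosen anew, the oocyte stayed above spermatogonia with RPM of all 4 tables (31.4% and 17.6%). It also did where the choice used totals without the most abundant entries (59.2% and 28.3%) or without the chrM entries (57.9% and 24.2%). These shares are still of all piRNA reads of a library. The order of these libraries turned round under other scalings. The oocyte then held 10.8% and spermatogonia 20.2% with edgeR's TMM factors, 5.50% and 14.0% with the deposited normalised column, and 2.96% and 12.7% with DESeq2's size factors. All entries with at least 100 reads together took 93.9% to 98.4% of each library, so the minimum of 100 reads left out little of any library. In spermatozoa a single entry outside the set, PIR64428, took 36.3% of the piRNA reads, against 1.76% to 12.1% in the other libraries. Without the 11 entries ranked in the top 5 of at least 1 library, of which 6 were shared entries, the share in spermatozoa was 53.5%, and in the oocyte 52.5%.

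A small number of entries carried most of that share. In the oocyte 9 shared entries held 50% of the reads on all 1211, and in primordial germ cells and spermatogonia 15 did. At 90% of those reads, the number was 70 for primordial germ cells and 104 for spermatogonia, with 41 for spermatozoa, 30 for oocytes and 31 for zygotes. The typical shared entry was rare: its reads over the 5 libraries had a median of 299.99, 606 entries had under 300, and 82 had at least 10000. Median levels were 8.08 RPM for primordial germ cells and 8.71 for spermatogonia, with 4.49 for spermatozoa, 3.63 for oocytes and 3.41 for zygotes. The egg libraries thus had the lowest medians, while the oocyte had the highest summed share.

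**Figure D1:**
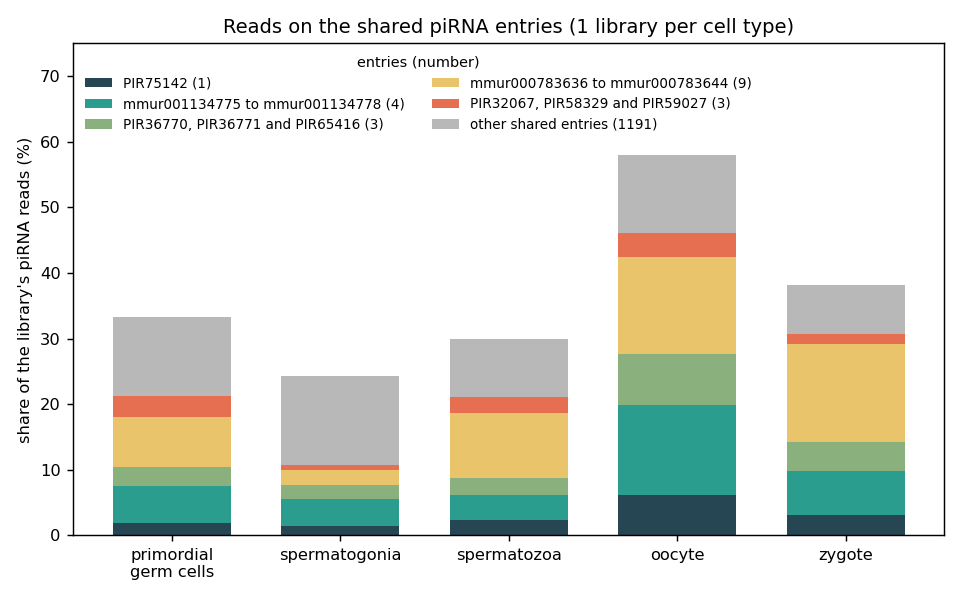
Stacked bars give the percent of each library's piRNA reads on the shared entries (y axis) in the 5 libraries (x axis), split into the 5 leading groups of near-equal entries and the other 1191, with numbers of entries in brackets. The oocyte bar reaches 57.97% and the spermatogonia bar 24.3%, and the run mmur000783636 to mmur000783644 is as tall in the zygote (14.8%) as in the oocyte (14.7%).

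The most abundant shared entry was PIR75142. It stood at 18633 RPM for primordial germ cells and 14644 for spermatogonia, with 23350 for spermatozoa, 61758 for oocytes and 30772 for zygotes. The oocyte was highest and spermatogonia lowest, 4.22-fold apart. Its egg-stage mean took 44.96% of the sum of 4, just under the limit. Next came a run of 4 consecutive names, mmur001134775 to mmur001134778. The last of these, mmur001134778, had 14518, 10228, 9491, 34978 and 17062 RPM in primordial germ cells, spermatogonia, spermatozoa, oocyte and zygote, in that order. In this run spermatozoa were lowest and the oocyte highest. The trio PIR36770, PIR36771 and PIR65416 followed with the oocyte, then the zygote and then primordial germ cells on top. Of these, PIR36771 had 9466 RPM for primordial germ cells and 7201 for spermatogonia, with 8739 for spermatozoa, 25944 for oocytes and 14995 for zygotes. These 8 entries were the most abundant of the set, and the next in rank, mmur000783644 and mmur000783643, differed in their pattern. Those belonged to a run of 9 names, mmur000783636 to mmur000783644. mmur000783644 had 8715 RPM for primordial germ cells and 2671 for spermatogonia, with 11076 for spermatozoa, 16331 for oocytes and 16487 for zygotes. Spermatogonia were low for the whole run, at 2613 to 2671 RPM, and the oocyte and zygote were nearly level.

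The 5th group, PIR32067, PIR58329 and PIR59027, was also low in spermatogonia. Its member PIR58329 stood at 10450 RPM for primordial germ cells and 2545 for spermatogonia, with 8130 for spermatozoa, 12261 for oocytes and 5358 for zygotes. Together the 5 groups, 20 entries in all, took 21.2% of piRNA reads for primordial germ cells and 10.8% for spermatogonia, with 21.1% for spermatozoa, 46.1% for oocytes and 30.7% for zygotes. The other 1191 shared entries took a narrower range, 12.1%, 13.5%, 8.83%, 11.9% and 7.38% in the same order of libraries. The spread of the summed share between libraries thus lay mostly in these 20 entries.

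**Figure D2:**
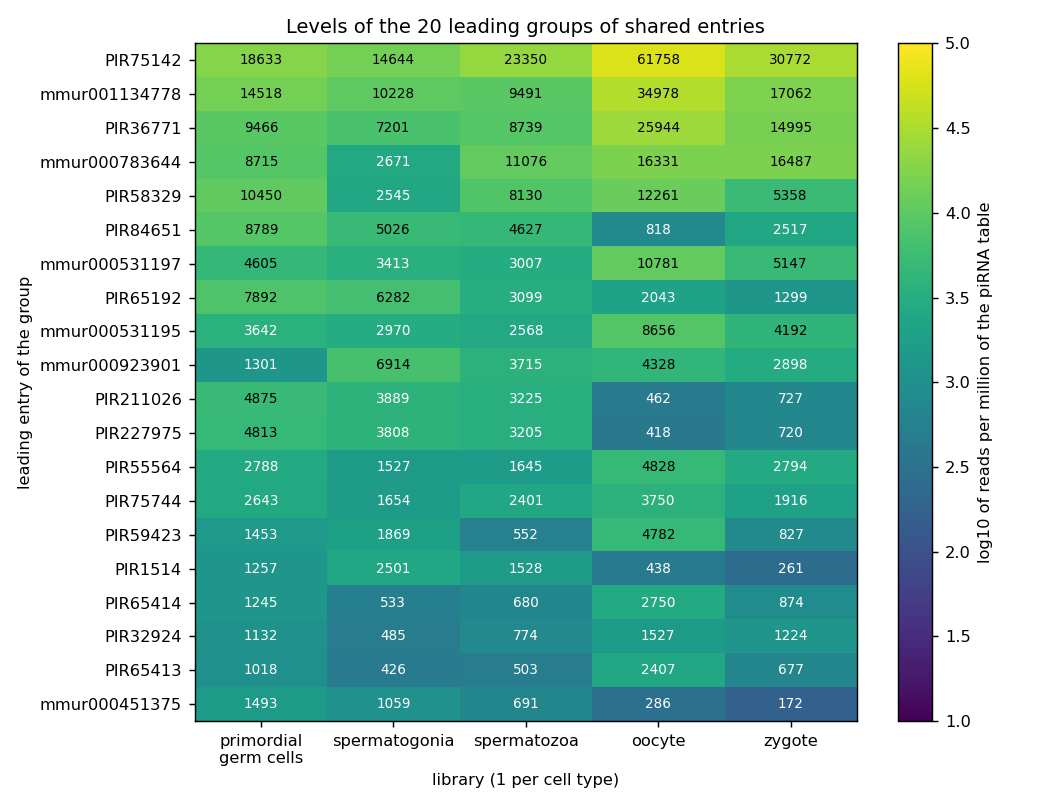
Levels in RPM (printed in each cell, and as colour on a log10 scale) of the leading entry of the 20 most abundant groups of near-equal shared entries (rows) in the 5 libraries (columns, 1 library each). PIR75142 in the oocyte is the highest cell at 61758, and rows such as PIR84651 and PIR211026 are low in the oocyte and zygote where most of the top rows are high.

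Not all abundant shared entries had the oocyte on top. PIR84651 had 8789 RPM for primordial germ cells and 5026 for spermatogonia, with 4627 for spermatozoa, 818 for oocytes and 2517 for zygotes. PIR65192 was likewise highest in primordial germ cells, with 7892 RPM there, then 6282 in spermatogonia and 3099 in spermatozoa, and only 2043 in oocytes and 1299 in zygotes. Levels of PIR211026 lay at 4875, 3889 and 3225 RPM in primordial germ cells, spermatogonia and spermatozoa and at 462 and 727 in the oocyte and zygote. In these the 3 male libraries all lay above both egg libraries. A run of 6 names, mmur000923897 to mmur000923902, had spermatogonia on top. Its entry mmur000923901 stood at 1301 RPM for primordial germ cells and 6914 for spermatogonia, with 3715 for spermatozoa, 4328 for oocytes and 2898 for zygotes. mmur000531197, the next after PIR84651 in rank, followed the leading run in its order of libraries, at 4605 RPM for primordial germ cells and 3413 for spermatogonia, with 3007 for spermatozoa, 10781 for oocytes and 5147 for zygotes. PIR216779, singled out after its values were seen, was low in spermatozoa alone, with 29.2 RPM there against 468 to 1227 in the other 4 libraries.

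By library, 351 of the 1211 entries were highest for primordial germ cells and 436 for spermatogonia, with 140 for spermatozoa, 118 for oocytes and 166 for zygotes. The lowest library was that of primordial germ cells for 61, spermatogonia for 108, spermatozoa for 424, the oocyte for 270 and the zygote for 348. The 174 entries led by the egg-stage mean were few but abundant, with 48.9% of oocyte and 21.3% of primordial germ cell piRNA reads. The 486 led by spermatogonia took 6.30% of the spermatogonial reads and 2.27% to 3.47% elsewhere.

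The rule itself allows wide differences, and few of the entries were level in all 5 libraries. The highest of the 4 shares ranged from 28.3% to the limit with a median of 41.1%, and 734 entries were above 40%. Over the 5 libraries taken singly, the highest level was a median of 6.92-fold the lowest among the 1187 entries with reads in every library. Only 240 stayed within 4-fold, 16 within 2-fold, and 379 spanned more than 10-fold. Of all 1211, 24 had 0 reads in at least 1 library. The most abundant of these, PIR17297, had 20.2 RPM in primordial germ cells and 18.8 in the zygote and no reads in spermatozoa, which allows up to 0.165 RPM there. Among all 11444 entries with enough reads, 80.8% had reads in every library, against 98.02% of the shared entries, a difference that the limit on shares by itself favours.

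By the share of the leading stage, PIR37311 was the most even entry, at 28.3%. It had 36.6 RPM for primordial germ cells and 22.6 for spermatogonia, with 37.7 for spermatozoa, 61.7 for oocytes and 10.8 for zygotes. Its egg-stage mean hid a 5.69-fold difference between oocyte and zygote. mmur001150488, next in evenness, was level at low depth, with 3.40, 3.32, 2.36, 2.31 and 3.02 RPM in the same order of libraries and 149 reads in all. It was followed by PIR212585 at 29.1%, mmur000883701 at 29.2% and mmur001150489 at 29.6%. mmur000883701 was the most abundant entry within 2-fold in all 5 libraries, with 36.6, 34.98, 25.6, 32.0 and 23.97 RPM. Among abundant entries, PIR75744 spanned 2.27-fold, with spermatogonia lowest at 1654 RPM and the oocyte highest at 3750. PIR65948 spanned 2.04-fold, with spermatozoa lowest at 382 RPM and the oocyte highest at 780. All of these values were used in the choice of the entries and are given as a description.

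Near the limit, the 3 entries just inside it were mmur000923888, mmur001245030 and PIR62063, each with a leading share of 44.99%. mmur001245030 had 5.82 RPM for primordial germ cells and 5.28 for spermatogonia, with 0.212 for spermatozoa, 2.67 for oocytes and 0.565 for zygotes, which spans 27.5-fold. The 3 just outside were mmur000691011, mmur000491025 and mmur000538501. mmur000491025 had 32.9 RPM for primordial germ cells and 29.7 for spermatogonia, with 6.53 for spermatozoa, 3.09 for oocytes and 4.95 for zygotes. Entries on both sides of the limit thus had libraries several-fold apart.

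Which entries counted as shared depended on how libraries were scaled. With RPM of all 4 tables of a library there were 1526 shared entries, of which 649 were among the 1211. With edgeR's TMM factors there were 2505, of which 517 were among the 1211, with DESeq2's size factors 2775 and 297, and with the deposited normalised column 2401 and 454. Of 12 abundant entries, chosen after their values were seen, 5, 5, 1 and 2 stayed within the limit under these 4 scalings. The 1 entry left under DESeq2's factors was PIR65948, which stayed within 45% under every scaling tried. PIR75142 had its leading share at 45.3% with the deposited column and at 52.5% with TMM factors. The entries are therefore shared in the sense of their part of each library's piRNA reads.

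The zygote was set against the oocyte to compare the levels of these entries after and before fertilization. The choice of entries used the mean of both egg libraries and not their difference. It left out the entries in which that mean exceeded the limit, and kept those that it led within the limit. At least 100 reads over the pair were found for 524 of the 1211 entries, and 687 were too rare to compare. Of the 524, 10 (1.91%) were higher in the zygote by 4-fold or more, where 5.16% of all 4170 piRNA entries with enough reads were. Lower by 4-fold or more were 31 (5.92%), where 4.99% of all entries were. The count of lower entries was near the background. Of the 215 higher entries among all those with enough reads and no chrM mark, 169 exceeded the limit in the egg-stage mean. These could not be shared entries, and the lower count of higher entries is not read as a result. Within the limit, 116 of the 524 were led by the egg-stage mean. They held 7 of the 10 higher and 10 of the 31 lower entries. The median log2 ratio of zygote over oocyte was -0.37 for the shared entries and 0.50 over all entries. A total of 328 shared entries lay below a ratio of 1 and 196 above it. For entries past the limit led by primordial germ cells, spermatogonia and spermatozoa the medians were -0.35, -0.16 and -0.05. For those past it led by the egg stages the median was 0.93. The median of the shared entries lay nearest to that of the entries past the limit led by primordial germ cells, and below all 4 of these medians. Of the entries past the limit led by the egg stages, which make up 1877 of those compared, 87.5% lay above 1.

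**Figure D3:**
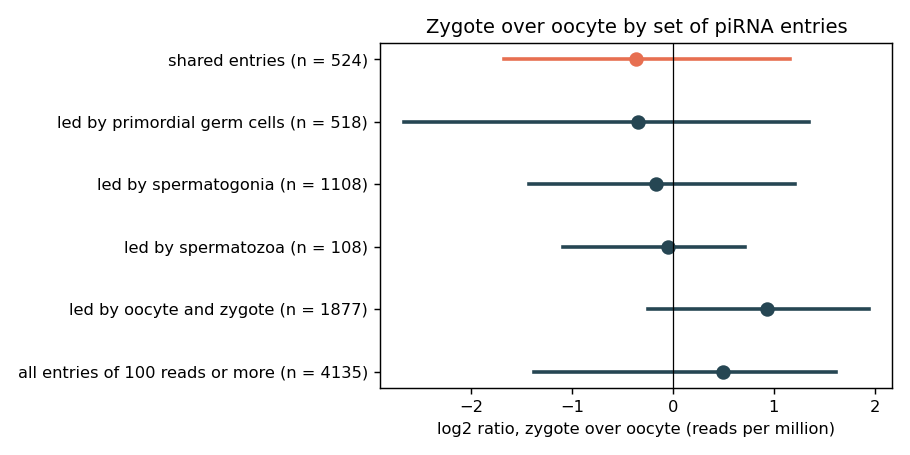
Points give the median and lines the 10th to 90th percentile of the log2 ratio of zygote over oocyte (x axis). Rows (y axis) are the shared entries, entries past the limit led by each stage, and all entries with at least 100 reads and no chrM mark. The n is of entries with 100 reads over the pair. The shared entries have their median at -0.37, and the entries past the limit led by oocyte and zygote at 0.93.

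Scaling moved these ratios by -0.60 to 0.16 on the log2 scale, the same for every entry. The median of the 524 shared entries stayed below 0 under every scaling tried, from -0.97 with all 4 tables to -0.21 with DESeq2's factors. That of all entries went from -0.10 to 0.66. Of the same 524 entries, 5 to 11 were then higher and 28 to 82 lower by 4-fold or more in the zygote. The share of all entries past 4-fold was not counted under these scalings, so these counts are not read as a result.

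Of the 5 leading groups, 4 were lower in the zygote under every scaling tried, and the run of 9 names was level by RPM of the piRNA table. PIR75142 had 30772 RPM in the zygote and 61758 in the oocyte, a ratio of 0.498 with an exact 95% interval of 0.4962 to 0.5003, for 2 Poisson counts given their sum. For mmur001134778 the ratio was 0.488 (0.485 to 0.491), with 17062 RPM in the zygote and 34978 in the oocyte. PIR36771 stood at 0.578 (0.574 to 0.582) and PIR58329 at 0.437 (0.433 to 0.441). The run of mmur000783644, in contrast, had a ratio of 1.01 (1.003 to 1.016), which was 0.665 with all 4 tables, 0.917 with TMM factors, 0.923 without the most abundant entries, 0.969 with the deposited column and 1.13 with DESeq2's factors. These intervals cover counting error only, and with 1 library on each side they say nothing of the spread between animals. PIR84651 was higher in the zygote, with 2517 RPM there and 818 in the oocyte, 3.08-fold (3.01 to 3.15).

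The summed share was 38.1% in the zygote and 57.97% in the oocyte, a difference of -19.9 percentage points. Zygote minus oocyte was -7.05 points for the run mmur001134775 to mmur001134778, -3.29 for the trio of PIR36771, -3.10 for PIR75142 and -2.07 for the trio of PIR58329. The 9 entries of the mmur000783636 run were 0.16 points higher in the zygote, and the difference over the other 1191 entries was -4.53 points. In number, 661 entries had a lower RPM in the zygote and 547 a higher one, a more even split than that of the reads.

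Entries at least 4-fold lower in the zygote were led in abundance by PIR59423, which had 827 RPM in the zygote and 4782 in the oocyte, 5.79-fold lower (5.65 to 5.92). In the male libraries it stood at 1453, 1869 and 552 RPM in primordial germ cells, spermatogonia and spermatozoa. mmur001132931 had 299 RPM in the zygote and 1507 in the oocyte, 5.04-fold lower (4.85 to 5.24). PIR75722 had 116 RPM in the zygote and 623 in the oocyte, and was nearly missing from spermatozoa, at 0.494 RPM. The largest differences were among rare entries. PIR62506 had 0.419 RPM in the zygote and 7.06 in the oocyte, 16.9-fold lower, with a wide interval of 6.36 to 62.8. PIR71693 was 9.98-fold lower (6.74 to 15.8), at 2.65 RPM in the zygote and 26.5 in the oocyte, and mmur001415050 was 8.75-fold lower (5.57 to 14.2), at 2.18 and 19.1 RPM in these libraries. Several of the 31 were neighbours in name, among them mmur000969156 to mmur000969159 and mmur001415046 to mmur001415050. With each run of near-equal names counted once, 23 were lower and 9 higher.

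Higher in the zygote by the most were PIR255258 and PIR254881, each with 42.5 RPM in the zygote and 5.36 in the oocyte, 7.93-fold (6.19 to 10.2). They had equal reads in 4 libraries and stood at 20.0 and 19.9 RPM in spermatozoa, so they cannot be taken as separate measurements. mmur000906876 was 6.44-fold higher (4.59 to 9.19), with 19.0 RPM in the zygote and 2.96 in the oocyte. In the male libraries this entry had 23.8 RPM for primordial germ cells, 19.3 for spermatogonia and 2.92 for spermatozoa. The most abundant of the 10, PIR1015, had 91.5 RPM in the zygote and 16.7 in the oocyte. Its male levels were 136 RPM for primordial germ cells, 116 for spermatogonia and 28.6 for spermatozoa. The level of mmur000906876 in spermatozoa was as low as in the oocyte, and those of PIR255258 and PIR1015 in spermatozoa lay between the zygote and the oocyte.

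**Figure D4:**
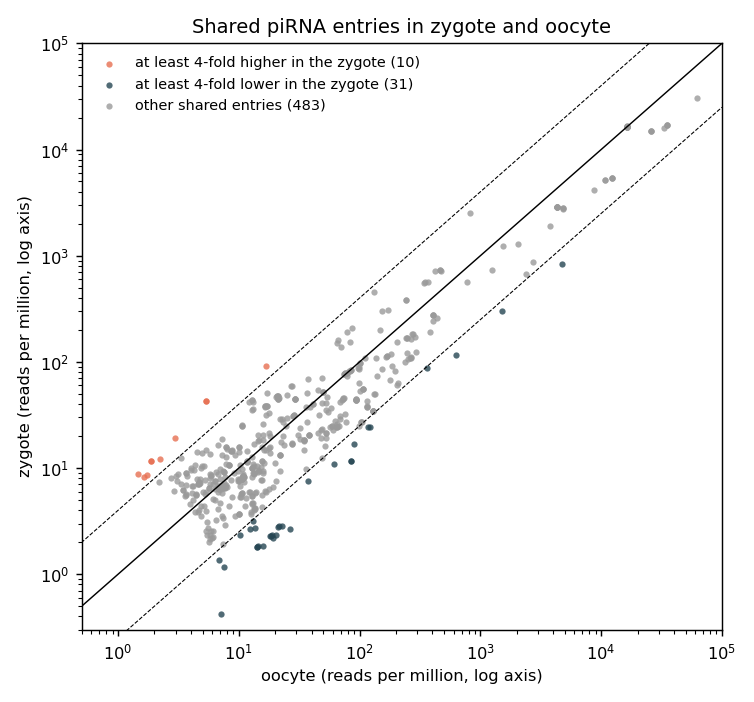
Each point is 1 of the 524 shared entries that had 100 reads or more in oocyte and zygote together, at its level in the oocyte (x axis) and zygote (y axis) in RPM, both on log axes. The solid line marks equal levels and the dashed lines 4-fold, past which 10 entries lie above and 31 below.

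The other comparisons between stages were bounded by the choice of entries, and are given as a description from which nothing is read. Between spermatogonia and primordial germ cells, 19 of 652 shared entries deep enough to compare were at least 4-fold higher in spermatogonia and 5 at least 4-fold lower, where 29.8% and 5.31% of all entries were. Between spermatozoa and spermatogonia, 2.94% of 749 were higher in spermatozoa and 18.8% lower, where 17.1% and 59.9% of all entries were. The median log2 ratio was -0.67 for the shared entries and -3.06 over all entries. Between spermatozoa and the oocyte, 133 of 766 were higher in spermatozoa and 109 lower, where 31.6% and 35.3% of all entries were. Between the zygote and spermatozoa, 76 of 679 were higher in the zygote and 177 lower, where 35.7% and 33.7% of all entries were. These comparisons share libraries with each other.

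The series of the names, which the rule did not use, was compared next. Names of the mmur series made up 892 of the 1211 shared entries (73.7%) and PIR names the other 319, where 59.6% of all 11444 entries were of the mmur series. Entries past the limit led by primordial germ cells and spermatogonia were 79.9% and 80.5% mmur. Those past it led by spermatozoa were 23.6% mmur and those led by the egg stages 8.84%. The shared entries thus lay near the first 2 sets in this respect. Within them the mmur entries had the larger share of reads in every library, with 35.7% of oocyte reads against 22.3% on the PIR entries. Their median log2 ratio of zygote over oocyte was -0.40 over 342 entries, and that of the PIR entries was -0.20 over 182.

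By the same read values that chose them, many of the shared entries were near copies of each other in their reads. Of the 1187 with reads in every library, 536 (45.2%) fell into 197 groups of up to 9. All entries of such a group had reads within 10% of each other in each of the 5 libraries. An entry within 10% of only some of a group could be left out of it. Entries with the same reads as another in all 5 libraries numbered 90. Neither of these counts was made over all 11444 entries, so they are not read as particular to the shared entries. Runs of consecutive names within 10% of the name before held 471 shared entries (38.9%), where 22.1% of all 11444 entries lay in such runs. The longest were mmur000783636 to mmur000783644, with 9 names, and the rare runs mmur000396883 to mmur000396889 and mmur001005839 to mmur001005845, with 7 each. Counted once per run, the 1211 entries came to 922. Read values that were not whole, within 0.005 reads, made up 89.9% to 92.9% of the values of shared entries above 0, by library, and 84.3% to 86.9% of those of all 11444 entries.

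Differences between neighbouring names also recurred between distant names. mmur001134776 exceeded mmur001134775 by 5248.5 reads for primordial germ cells and 3016 for spermatogonia, with 7853 for spermatozoa, 30599 for oocytes and 9057 for zygotes. mmur000531196 exceeded mmur000531195 by the same numbers in each of the 5 libraries, within 0.015 reads. Likewise, mmur001134777 exceeded mmur001134776, mmur000531197 exceeded mmur000531196 and mmur000551455 exceeded mmur000551454 by the same 356, 149, 148, 238 and 61.8 reads. Of 107 neighbouring pairs that differed by at least 10 reads in every library, 7 matches of this kind were found, over all ways of pairing them. Shared entries are thus not independent measurements of each other, and a count of entries is not a count of separate small RNAs.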

How the data were processed

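Per the labels' protocols, total RNA was extracted with TRIzol and Illumina libraries gave sequences of 18 to 32 nucleotides. Bowtie 0.12.7, DESeq and mm10 are named without roles, per the submitters' processing notes. How reads with several matches were counted, and which annotation was used, is not given in the sources at hand. The deposited read columns are expected counts, not whole for most entries with at least 100 reads. The deposited TMM column is a signal: every read value of a library multiplied by the same factor (0.672 to 1.37 by library). It was used only as an alternative.

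Reads were scaled to RPM of the piRNA table. Ratios between a pair of libraries were formed on the log2 scale after adding 0.5 reads to each, where the pair held 100 reads or more, and those of 4-fold or over were counted. Having 1 library for each cell type allowed no test. Intervals at 95% are Clopper-Pearson for shares, and for ratios are those of 2 Poisson counts given their sum, on rounded reads. Copies made by PCR are not separate molecules, so intervals and the floor of 3 counts cover counting error only. Intervals also take rounded reads as separate counts. Most read values are not whole and many entries are near copies in their reads, so intervals may be too narrow. Functions were tested on simulated data. Alternatives were other scalings (edgeR 4.0.16 TMM, DESeq2 1.42.0, all 4 tables, the deposited column, totals without abundant or chrM entries), minimums, limits, pseudocounts and runs counted once. Python 3.11.15, pandas 2.3.3 and scipy 1.17.1 were used. Named were the 10 entries with the highest mean of the 4 values, the 5 most even, 3 on each side of the limit, the 3 highest and 3 lowest in zygote over oocyte and the 3 longest runs. Others were chosen after their values were seen. Loci within 10 kb and annotation classes had been planned, but the names give no positions, so runs of consecutive names (within 10% in each library) were used. The entries, lists and rules were chosen with earlier results of these data known.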

Additional observations from a re-analysis of the deposited data

How the results depend on the processing

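The number of shared entries, 1211, stayed within 1.5 times with all 4 tables (1526), without the most abundant entries (1519), without chrM entries (1212), with the oocyte alone (1331) or the zygote alone (1080) as egg value, and with runs of names counted once (922; chosen after seeing the data). It was 2401 with the deposited column, 2505 with TMM factors, 2775 with DESeq2's factors, 1852 and 749 at minimums of 50 and 200 reads, 8982 with no minimum, 477 and 2301 at limits of 40% and 50%, and 2063 with oocyte and zygote separate. With the entries chosen anew, those at least 4-fold lower in the zygote, 31, numbered 101 with the deposited column, 120 with all 4 tables, 99 with TMM factors, 62 with DESeq2's and 52 without the most abundant entries; elsewhere 23 to 44. Those at least 4-fold higher, 10, numbered 33 at a minimum of 20 reads over the pair and 42 with none, and 9 to 15 elsewhere. Sets chosen anew differed in size, and the share of all entries past 4-fold was not counted for them. Their counts are therefore not read against a background. The share of piRNA reads on the shared entries was 32.8%, 24.8%, 53.5%, 52.5% and 35.2% in primordial germ cells, spermatogonia, spermatozoa, oocyte and zygote without the most abundant entries, and 33.4%, 24.3%, 29.98%, 58.02% and 38.1% without chrM entries. With the entries chosen anew, added after seeing the data, these shares in the same order were 24.2%, 17.6%, 11.9%, 31.4% and 17.2% with all 4 tables, 20.2%, 20.2%, 9.52%, 10.8% and 6.60% with TMM factors, 14.8%, 14.0%, 4.00%, 5.50% and 3.90% with the deposited column, and 8.90%, 12.7%, 1.76%, 2.96% and 2.13% with DESeq2's factors, so the oocyte was highest with all 4 tables and was not with the other 3. With only the choice made on totals that left out the most abundant entries, those shares of all piRNA reads were 39.7%, 28.3%, 31.5%, 59.2% and 39.0%. With only the choice made on totals that left out chrM entries they were 33.3%, 24.2%, 29.9%, 57.9% and 38.1%. The oocyte was highest in both cases. With the most abundant entries left out of the share itself, as above, spermatozoa (53.5%) stood above the oocyte (52.5%). Other minimums and limits let in more or fewer entries by construction, and for the scalings the cause was not tested. Annotation classes could not be counted without positions. No paired analysis was possible because each group has 1 library. Under 300 reads is all that 606 of the 1211 entries have over the 5 libraries, which limits what single low values show.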
